A study of Mus musculus with 6 samples.

Results

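The deep-layer excitatory neuron genes described here are 9 genes, Bcl11b, Fezf2, Etv1, Foxp2, Tbr1, Tle4, Rprm, Crym and Syt6, which in the mouse cortex mark the projection neurons of layers 5 and 6. They are taken by symbol, as known layer markers, and each of the 9 symbols matched 1 Ensembl gene among the 55487 genes of the count table. All 9 passed the filter on low counts and were among the 16119 genes tested. RNA was measured by sequencing of total RNA from the visual cortex of B6.CBA/Tar mice at postnatal day 28. The animals come from a line with a changed untranslated region (UTR) in Mmp9, whose product is an extracellular protease that cuts matrix proteins near synapses. The groups were homozygous mutants (UTRmut/UTRmut, here UTRmut), heterozygotes (UTRmut/WT, here het) and wild-type mice (WT/WT, here WT), with 2 libraries each, of which replicate 1 was a female and replicate 2 a male. The labels name no treatment, do not state whether animals were pooled or shared a litter, and give neither the changed bases nor how many founder lines were used, so that each p-value refers to the spread among these libraries alone, which may be partly technical.

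Deep-layer excitatory neurons send the output of the cortex to other parts of the brain. Layer 5 holds cells that project to the brainstem, the spinal cord and the striatum, and layer 6 holds cells that project back to the thalamus. Their identity is set during development by transcription factors that repress each other's programmes: Fezf2 and its downstream factor Bcl11b promote the subcerebral fate of layer 5, while Tbr1 promotes the corticothalamic fate of layer 6 and represses Fezf2. In the adult these genes stay on and are used as layer markers, although several are not exclusive to these cells. Bcl11b is also found in cortical interneurons, and Bcl11b and Foxp2 are both strong in the striatum. In tissue RNA, fewer cells of a type and less RNA per cell cannot be told apart.

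Total counts per library were 9500090 to 11966579, and 23353 to 23845 genes had at least 1 count. Values below are CPM, counts scaled to library size after TMM correction (trimmed mean of M-values). Mmp9 had 8 and 16 counts in UTRmut, 9 and 9 in het and 4 and 9 in WT. Mitochondrial ribosomal RNA took 4.95% to 8.69% of counts, with the highest share in the UTRmut male. The choroid plexus list of 5 genes summed to 49.8 CPM in the WT male and to 3.55 to 11.1 CPM in the other libraries, through Ttr, the transthyretin gene, at 42.1 CPM in the WT male. Markers of glutamatergic neurons were abundant in every library, with Slc17a7, the vesicular glutamate transporter of cortical projection neurons, at 875 to 1005 CPM. Of 8 striatal markers, Drd2 and Adora2a, which define the indirect-pathway neurons of the striatum, stayed under 1 CPM in each library, and of 7 hippocampal markers Dsp, Spink8 and Tdo2 stayed at or under 0.777 CPM.

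No comparison below uses promoter sequence. Stretches before a transcript start are shown for 3 of the genes: Etv1 for its order over the genotypes, Tbr1 as the central factor of layer 6, and Rprm for its difference between the sexes. Each is the 30 bases just before 1 annotated transcript start, which for Etv1 and Tbr1 lies inside the gene's full span, 5′ to 3′ on the gene's strand, from RefSeq on GRCm38.p6, with capitals marking the letters AGGAAG, a core recognised by ETS factors such as Etv1 itself.
Etv1, chr12:38780052-38780081, plus strand: gttttaacaaaaacagcgagttAGGAAGga
Tbr1, chr2:61804423-61804452, plus strand: ttaatgtctatctaattaaattactgtcag
Rprm, chr2:54085553-54085582, minus strand: ggcccaacccgccaagttccaagagctccc
Promoter windows of 250 bases before to 50 bases after a start were at hand for 7 of the 9 genes (11 windows), those without one being Foxp2 and Crym. AGGAAG, on either strand, lay in windows of 4 of the 7 genes (Bcl11b, Etv1, Syt6 and Tbr1) and in 35.4% of all 32851 windows. The T-box core TCACAC lay in a window of 1 gene (Bcl11b) and in 14.5% of all windows, the forkhead core TGTTTA in 1 (Tbr1) and in 13.4%, and TATAAA in 2 (Bcl11b and Etv1) and in 13.6%. A gene counted if any of its windows matched, while the shares are per window, so counts and shares are not like for like. These matches describe letters only.

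On GRCm38 the genes lie at chr12:107910403-108003602 (Bcl11b, minus strand), chr14:12342094-12348189 (Fezf2, minus), chr12:38779380-38870484 (Etv1, plus), chr6:14901349-15441977 (Foxp2, plus), chr2:61802930-61814114 (Tbr1, plus), chr19:14448150-14598051 (Tle4, minus), chr2:54084093-54085552 (Rprm, minus, 1 exon), chr7:120186380-120202111 (Crym, minus) and chr3:103575231-103645569 (Syt6, plus). All 9 genes were well measured, with 1456 (Syt6) to 6638 (Etv1) counts summed over the 6 libraries. Compared per length, as CPM per kilobase of merged exon, Rprm stood highest at 24.5 ± 4.02 (SD, n = 6 libraries of 3 genotypes). It was followed by Crym at 17.6 ± 2.35, Tbr1 at 14.6 ± 1.12 and Tle4 at 14.0 ± 0.890 CPM per kilobase. Neighbours among these 4 genes overlapped in their ranges over the libraries. Fezf2 came next at 9.85 ± 0.650, with no overlap with Tle4 above it or Bcl11b below it. Bcl11b at 7.78 ± 0.429 and Etv1 at 7.74 ± 0.710 CPM per kilobase did not differ beyond their spread. Syt6 at 3.88 ± 0.578 and Foxp2 at 1.42 ± 0.140 CPM per kilobase were lowest and overlapped with no neighbour. Merged exons of many gene models (16346 bases for Foxp2, with 20 transcripts) understate this level where few of the models are in use.

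**Figure D1:**
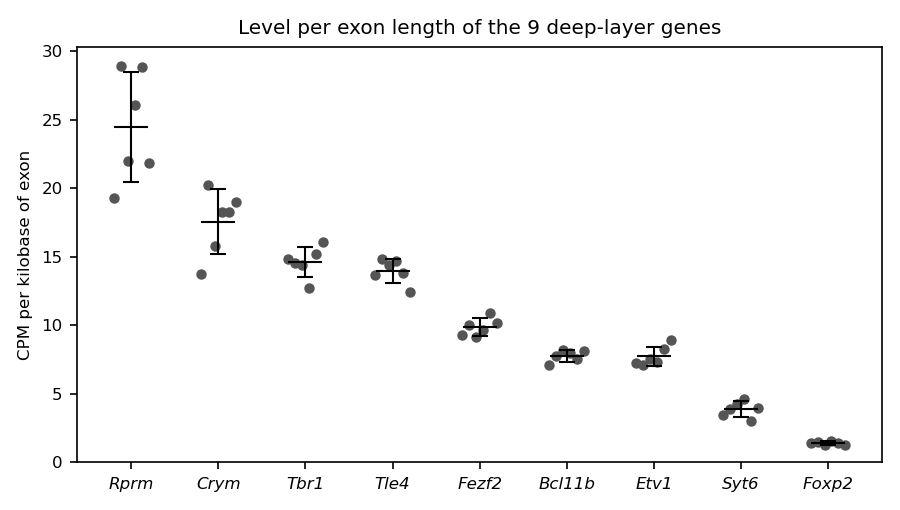
Level of the 9 genes as CPM per kilobase of merged exon on a linear axis from 0, in falling order; points are the 6 libraries and bars the mean ± SD. Rprm and Crym stand highest and are the most spread, at 24.5 ± 4.02 and 17.6 ± 2.35, and Foxp2 is lowest at 1.42 ± 0.140.

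The coefficient of variation over the 6 libraries was 5.51% for Bcl11b, 6.37% for Tle4, 6.60% for Fezf2, 7.64% for Tbr1, 9.18% for Etv1 and 9.85% for Foxp2. It was larger for Crym (13.4%), Syt6 (14.9%) and Rprm (16.4%), the 3 genes that encode no nuclear regulator. Among tested genes within 1.5-fold of their own level, the variation of Rprm, Crym and Syt6 stood at percentiles 95.2, 92.9 and 88.9, that of Etv1, Tbr1 and Foxp2 at 80.8, 64.1 and 60.6, and that of Tle4, Bcl11b and Fezf2 at 46.1, 30.5 and 30.3. The summed level of the 9 genes was 459.8 and 510.4 CPM in UTRmut, 487 and 498 CPM in het and 511 and 515 CPM in WT, and so was lowest in the UTRmut female.

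In homozygous mutants the deep-layer genes stayed close to wild type. None of the 9 passed in UTRmut against WT (0 of 9, edgeR quasi-likelihood test, Benjamini-Hochberg adjusted p over all genes of 0.999 for each, with 0.00620% of tested genes called; DESeq2 also called 0 of 9). At an unadjusted p under 0.05 there was 1 of the 9, Etv1, against 2.71% of all genes tested. The fitted log2 folds ran from -0.26 to 0.14 with a median of -0.09, beside a median of -0.01 over all genes, and 6 of 9 were negative. The 95% intervals of the 9 log2 folds lay between -0.54 and 0.46, so that changes of more than 1.45-fold lay outside the interval of every gene. In 3 of 9 genes (Fezf2, Etv1 and Tbr1) both UTRmut libraries lay below both WT libraries and in 0 above, where 14.6% and 14.0% of all tested genes did so (28.6% in either direction). Without the UTRmut female the median log2 fold was 0.12, of the opposite sign.

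**Figure D2:**
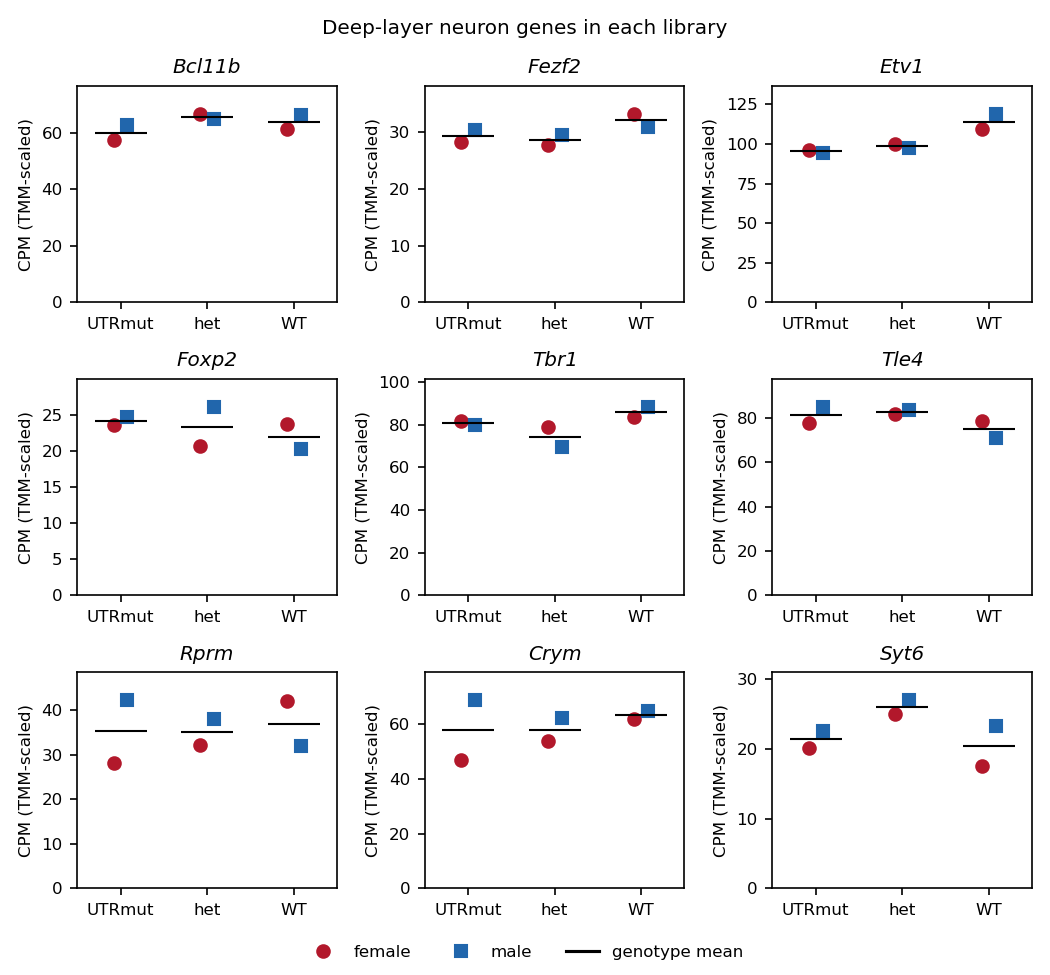
Level of each of the 9 genes in CPM (y axes start at 0) in UTRmut, het and WT; circles are females, squares males and lines the mean of the 2 libraries. Etv1 descends to the left, at 95.4, 99.0 and 114 CPM in UTRmut, het and WT, and Rprm and Crym spread most in UTRmut.

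Among the factors of layer 5, Etv1 and Fezf2 lay below WT in both mutant genotypes without overlap, and Bcl11b overlapped WT in both. Etv1, an ETS transcription factor that marks layer 5 projection neurons, had 96.3 and 94.5 CPM in UTRmut, 100.1 and 97.8 CPM in het and 109.6 and 119 CPM in WT. No genotype overlapped another, with UTRmut lowest, an order without overlap found in 0.819% of all tested genes and noticed here after the values were seen. Its log2 fold was -0.26 (SE 0.09) in UTRmut against WT, -0.21 (SE 0.09) in het against WT and -0.13 (SE 0.04) per mutant allele, with unadjusted p of 0.0116, 0.0368 and 0.00763, and it passed in none of these (adjusted p 0.9975 or more in edgeR with Benjamini-Hochberg adjustment). Over the 12 alternatives tried the log2 fold in UTRmut against WT stayed between -0.32 and -0.19, with adjusted p from 0.476 upward.

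Fezf2, a zinc-finger factor that specifies subcerebral projection neurons, had 28.2 and 30.5 CPM in UTRmut, 27.8 and 29.5 CPM in het and 33.2 and 31.0 CPM in WT. Both libraries of either mutant genotype lay below both WT libraries, and UTRmut and het overlapped. The log2 fold was -0.13 (SE 0.12) in UTRmut against WT and -0.16 (SE 0.12) in het against WT. Bcl11b, a zinc-finger factor needed for the outgrowth of corticospinal axons, had 57.3 and 62.7 CPM in UTRmut, 66.5 and 64.7 CPM in het and 61.2 and 66.2 CPM in WT. The libraries of UTRmut and WT overlapped, and the log2 fold was -0.09 (SE 0.10) for UTRmut and 0.04 (SE 0.10) for het.

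The layer 6 regulators went in no common direction. Tbr1, a T-box factor of corticothalamic neurons, had 81.4 and 79.9 CPM in UTRmut, 78.9 and 69.6 CPM in het and 83.3 and 88.1 CPM in WT. Both WT libraries were the highest and the het male was the lowest. Its log2 fold was -0.09 (SE 0.10) in UTRmut against WT and -0.21 (SE 0.10) in het against WT, with an unadjusted p of 0.0503 for het. Foxp2, a forkhead factor of corticothalamic neurons, had 23.6 and 24.7 CPM in UTRmut, 20.7 and 26.1 CPM in het and 23.7 and 20.2 CPM in WT, with overlap between all genotypes. Its log2 fold was 0.14 (SE 0.15) in UTRmut and 0.09 (SE 0.15) in het, each against WT. Tle4, a co-repressor of the Groucho family found in the same neurons, had 77.8 and 84.8 CPM in UTRmut, 81.9 and 83.7 CPM in het and 78.6 and 70.9 CPM in WT. Its log2 fold was 0.12 (SE 0.10) in UTRmut and 0.15 (SE 0.10) in het, each against WT, and both het libraries lay above both WT libraries.

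The remaining 3 genes encode a membrane, a cytosolic and a vesicle protein. Syt6, a synaptotagmin found in layer 6 neurons, had 20.2 and 22.6 CPM in UTRmut, 25.0 and 27.0 CPM in het and 17.6 and 23.2 CPM in WT. Both het libraries were above all others, and UTRmut and WT overlapped. Its log2 fold was 0.07 (SE 0.15) in UTRmut against WT and 0.35 (SE 0.15; 95% interval 0.02 to 0.68) in het against WT, with an unadjusted p of 0.0400 for het. Crym, mu-crystallin, which binds thyroid hormone, had 46.7 and 68.6 CPM in UTRmut, 53.6 and 62.0 CPM in het and 61.9 and 64.5 CPM in WT, at a log2 fold of -0.13 (SE 0.16) in each mutant genotype. Rprm, reprimo, a glycoprotein known for its part in cell cycle arrest and a marker of layer 6, had 28.2 and 42.2 CPM in UTRmut, 32.1 and 38.0 CPM in het and 42.0 and 31.9 CPM in WT. Its log2 fold was -0.07 (SE 0.21) in each mutant genotype against WT. For Crym and Rprm the lowest and the highest library were the female and the male of UTRmut, so that the spread within that genotype was as wide as over all 6 libraries. With 1 library left out in turn, the log2 fold in UTRmut against WT ran from -0.39 to 0.20 for Rprm, from -0.43 to 0.12 for Crym and from -0.12 to 0.30 for Syt6, positive without the UTRmut female for Rprm and Crym and without the WT female for Rprm, and negative without the UTRmut male or the WT female for Syt6.

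In heterozygotes, too, none of the 9 genes passed against WT (0 of 9, edgeR, Benjamini-Hochberg adjusted p of 0.9998 for each, with 0.0124% of tested genes called; DESeq2 called 0 of 9). At an unadjusted p under 0.05 there were 2 of 9, Etv1 and Syt6, against 2.37% of all genes. The median log2 fold was -0.07, with a range of -0.21 to 0.35, beside -0.00 over all genes, and 5 of 9 were negative. Groups did not overlap in 5 of 9 genes, 2 higher (Tle4 and Syt6) and 3 lower in het (Fezf2, Etv1 and Tbr1), against 27.1% of all genes tested (13.4% higher and 13.6% lower). The same 3 genes lay below WT in homozygotes, but both comparisons share the WT libraries. Without het replicate 1 or 2 and without WT replicate 1 or 2 the log2 fold of Syt6 in het ranged from 0.16 to 0.57, and that of Tbr1 from -0.30 to -0.12.

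**Figure D3:**
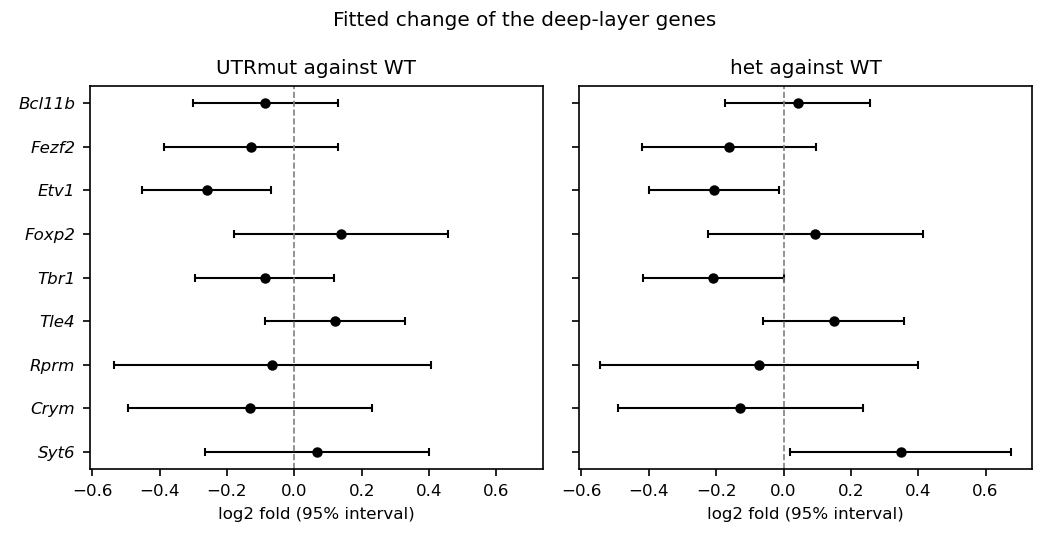
Fitted log2 folds (x axis) of the 9 genes in UTRmut against WT and in het against WT with 95% intervals from edgeR; the dashed line is no change. In UTRmut the interval of Etv1 (-0.45 to -0.07) leaves out 0, in het those of Etv1 and Syt6 do, and no gene passed after adjustment over all genes.

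Between the mutant genotypes and along the number of mutant alleles the deep-layer genes again did not pass. In UTRmut against het 0 of 9 passed (edgeR, Benjamini-Hochberg adjusted p of 0.9999 for each, with 0.0124% of tested genes called), 0 of 9 had an unadjusted p under 0.05 (2.80% of all genes), and DESeq2 called 0. Syt6 had the smallest p, at a log2 fold of -0.28 (SE 0.15), followed by Bcl11b at -0.13 (SE 0.10) and Tbr1 at 0.12 (SE 0.10). The other 6 genes lay between -0.05 (Etv1) and 0.05 (Foxp2). Both UTRmut libraries were above both het libraries for 1 gene (Tbr1) and below for 3 (Bcl11b, Etv1 and Syt6), against 16.4% and 17.9% of all genes (34.3% in either direction). Per mutant allele 0 of 9 passed (edgeR, adjusted p of 0.9975 for each, with 0.00% of tested genes called; DESeq2 called 0 of 9), and Etv1 was the 1 gene with an unadjusted p under 0.05 (3.12% of all genes). The log2 change per allele of the other 8 ran from -0.07 (Crym) to 0.07 (Foxp2).

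Other genes of the deep layers were taken from lists that do not hold the 9. Of 10 further layer 5 genes 0 passed in UTRmut against WT in either direction and 10 had a negative log2 fold, with a median of -0.20 beside -0.01 over all genes tested, of which 47.9% were positive. Over the 12 alternatives 7 to 10 of the 10 were negative. Tshz2, a zinc-finger gene of near-projecting layer 5 neurons, had 41.4 and 53.4 CPM in UTRmut, 98.4 and 57.4 CPM in het and 94.99 and 93.1 CPM in WT. Its log2 fold in UTRmut against WT was -0.99 (SE 0.28), with an unadjusted p of 0.0149. The het female lay with WT and the het male with UTRmut. Deptor, an inhibitor of the kinase mTOR, had 28.6 and 26.6 CPM in UTRmut, 37.0 and 32.6 CPM in het and 33.3 and 33.5 CPM in WT (log2 fold in UTRmut -0.27, SE 0.12). In het against WT 8 of the 10 were negative with a median of -0.10, 0 passed, and the smallest p were those of Parm1 (-0.15, SE 0.10) and Pou3f1 (-0.20, SE 0.18).

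Of 9 further genes of layer 6 and the subplate 0 passed, 5 positive and 4 negative in UTRmut against WT. Zfpm2, a cofactor of GATA proteins, had 19.7 and 21.6 CPM in UTRmut, 33.4 and 29.1 CPM in het and 32.9 and 26.4 CPM in WT, at a log2 fold of -0.52 (SE 0.14) for UTRmut against WT with an unadjusted p of 0.00278. Both UTRmut libraries were below the other 4. Ccn2, a secreted matrix-associated protein that marks the subplate, had 29.0 and 39.3 CPM in UTRmut, 37.6 and 35.3 CPM in het and 23.5 and 29.4 CPM in WT, at a log2 fold of 0.37 (SE 0.16) in UTRmut and 0.46 (SE 0.16) in het. Ntsr1, the neurotensin receptor that marks corticothalamic cells, had the next smallest p in het, at -0.24 (SE 0.26). Each missed the threshold (Benjamini-Hochberg adjusted p in edgeR 0.9988 or more).

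Of 10 regulators of projection neuron fate 0 passed in either mutant genotype, with median log2 folds of 0.00 in UTRmut and -0.14 in het against WT. Lmo4, a LIM-domain cofactor of transcription, was at -0.16 (SE 0.08) in UTRmut and -0.17 (SE 0.08) in het, each against WT. Of 15 paralogues of the 9 genes 12 were tested and 0 passed. Fezf1, Eomes and Tbx21 were not tested, with 0 counts in at least 1 library. Etv4 and Tle3 had the smallest p in UTRmut against WT, at 0.45 (SE 0.26) and 0.24 (SE 0.14), and Etv4 and Syt10 in het, at 0.41 (SE 0.27) and -0.25 (SE 0.17).

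Of 12 upper-layer genes 0 passed, with a median log2 fold of 0.08 in UTRmut and -0.15 in het against WT. Plcxd2 (0.26, SE 0.11) and Unc5d (0.19, SE 0.09) had the smallest p in UTRmut, and Scnn1a (-0.99, SE 0.36) and Rasgrf2 (-0.20, SE 0.09) in het. Between UTRmut and het 11 of the 12 were positive, against 49.7% of all genes tested. The median was 0.26, beside -0.00 for the 9 deep-layer genes, and the difference between the lists was not tested. In that comparison 0 passed, and 4 of the 12 (Cux1, Rasgrf2, Rorb and Unc5d) had an unadjusted p under 0.05 in edgeR, against 2.80% of all genes. The summed level of the 12 was 1324 and 1214 CPM in UTRmut, 1057 and 1085 CPM in het and 1103 and 1204 CPM in WT.

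In the marker lists of other cells 0 genes passed in either comparison with WT. For 8 interneuron genes the summed level was 774 and 751 CPM in UTRmut, 717 and 711 CPM in het and 658 and 721 CPM in WT. For 5 oligodendrocyte genes it was 2619 and 3468 CPM in UTRmut, 3215 and 3243 CPM in het and 3322 and 3270 CPM in WT. For 8 striatal genes it was 123 and 141 CPM in UTRmut, 118 and 129 CPM in het and 136 and 123 CPM in WT. The summed levels over all 6 libraries were 26.8 to 37.0 CPM for 7 hippocampal, 57.8 to 63.9 CPM for 6 thalamic, 53.1 to 59.7 CPM for 4 claustral, 883 to 1059 CPM for 5 astrocyte, 162 to 189 CPM for 5 microglial and 40.0 to 51.2 CPM for 5 vessel genes. None of these lists held a gene at 0 in all libraries, and Folr1 of the choroid plexus list had 0 counts in 1 library.

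The clearest difference among the 9 genes lay between the female and the male libraries in how Rprm followed the mutant allele. In females Rprm had 28.2 CPM in UTRmut, 32.1 in het and 42.0 in WT, and in males it had 42.2 CPM in UTRmut, 38.0 in het and 31.9 in WT. The female was thus the lower of the pair in UTRmut and het and the higher in WT. The log2 change per allele in females minus that in males was -0.49 (SE 0.10) and passed (edgeR, Benjamini-Hochberg adjusted p = 0.0211). It was the 1 of the 9 that passed, where 1.20% of all tested genes passed, 0.893% higher and 0.310% lower. An unadjusted p under 0.05 was reached by 2 of the 9, Rprm and Crym, and by 13.6% of all genes tested. Each combination of genotype and sex was 1 library, which leaves 2 residual degrees of freedom. Every female was replicate 1 and every male replicate 2. In every comparison of the sexes, sex thus cannot be told apart from replicate number or from differences between single libraries. DESeq2 gave -0.48 (SE 0.18) and did not call it (adjusted p = 0.197). In fits that left out 1 library, chosen after the data were seen, the difference was -0.59 to -0.39, and Rprm no longer passed without UTRmut replicate 1 (Benjamini-Hochberg adjusted p = 0.143 in edgeR), UTRmut replicate 2 (0.0638), WT replicate 1 (0.541) and WT replicate 2 (0.381).

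Crym fell with the mutant allele in females, as Rprm did, but had no steady order in males. Its female was lower than its male in each genotype, and it did not pass. It had 46.7 CPM in UTRmut, 53.6 in het and 61.9 in WT among females, and 68.6, 62.0 and 64.5 CPM in UTRmut, het and WT among males, with a difference of -0.25 (SE 0.09; edgeR, Benjamini-Hochberg adjusted p = 0.187). The differences of the other 7 genes lay between -0.14 (Foxp2 and Tle4) and 0.11 (Syt6), with adjusted p of at least 0.482. Signs of UTRmut minus WT were opposite in females and males for 5 of the 9 genes (Foxp2, Tle4, Rprm, Crym and Syt6), against 55.5% of all tested genes.

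Of the genes in the other lists, 3 of the 110 tested passed in the same test of sex by allele, which called 1.20% of all tested genes. Ppp1r1b, the phosphatase inhibitor DARPP, abundant in striatal neurons and present in layer 6 of the cortex, had 29.1 and 39.1 CPM in the UTRmut female and male, 28.6 and 30.3 CPM in het and 38.8 and 25.8 CPM in WT, an order like that of Rprm (-0.51, SE 0.11; edgeR, Benjamini-Hochberg adjusted p = 0.0286). Nrn1, a neuronal gene induced by activity, and Aqp4, the water channel of astrocytes, passed in the other direction, at 0.30 (SE 0.07) and 0.38 (SE 0.08). Nrn1 and Aqp4 had their lowest level in the WT female, at 191 and 63.4 CPM. In the UTRmut female, where Rprm and Crym were lowest, the oligodendrocyte and choroid plexus lists were lowest too, at 2619 and 3.55 CPM. The list of other layer 6 and subplate genes was also lowest there, at 141 CPM. That of other layer 5 genes was at 361.51 CPM, its lowest, beside 362.55 CPM in the UTRmut male. The vessel and thalamic lists were lowest in the UTRmut female as well, at 40.0 and 57.8 CPM. The 5 glutamatergic genes summed highest there, at 3031 CPM, mostly through Camk2a at 1736 CPM, and Nrn1 was also highest. That list was not uniform, as Neurod6 was lowest in the UTRmut female at 34.2 CPM. Slc17a7 was highest in the WT male at 1005 CPM and Emx1 in the WT female at 15.4 CPM. The striatal list was lower in the female than in the male of UTRmut and het and higher in WT, as Rprm was. The part of these cells in the result was not tested.

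**Figure D4:**
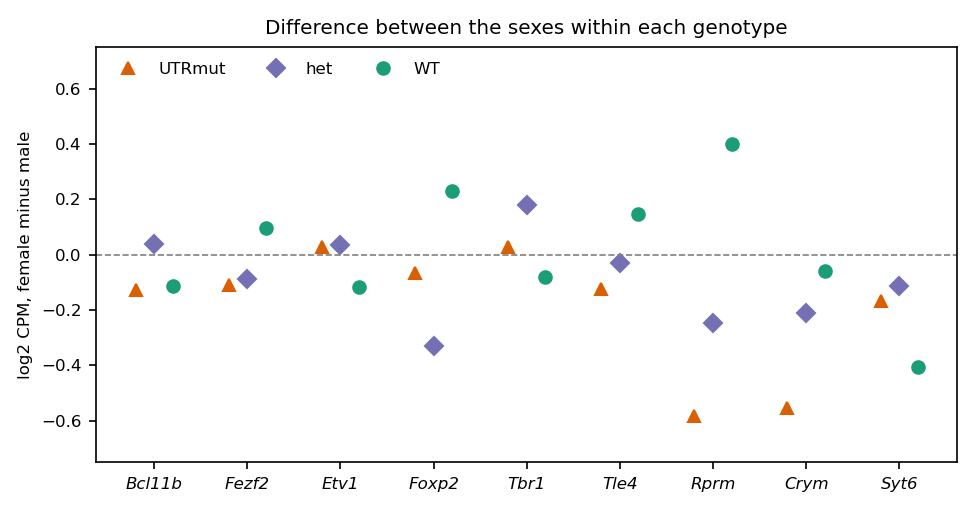
Difference between the female and the male library of each genotype in log2 CPM (y axis, above 0 is higher in the female) for the 9 genes; triangles are UTRmut, diamonds het and circles WT, each from 1 pair of libraries. Rprm runs from -0.58 in UTRmut over -0.25 in het to 0.40 in WT, Crym from -0.55 over -0.21 to -0.06, and Foxp2 from -0.06 over -0.33 to 0.23.

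Over all genotypes, none of the 9 genes passed between females and males (0 of 9, edgeR with genotype in the model, Benjamini-Hochberg adjusted p of 0.647 to 0.995, with 0.0372% of tested genes called and 0.0310% called lower; DESeq2 called 0 of 9). Crym was the 1 gene with an unadjusted p under 0.05 (6.99% of all genes) and averaged 54.1 ± 7.62 CPM in females and 65.0 ± 3.31 CPM in males (SD, n = 3 each; log2 fold -0.27, SE 0.10). It was also the 1 gene whose 3 females lay below all 3 males, as in 5.84% of all genes (12.3% did not overlap in either direction). Crym and Syt6 were lower in the female of each genotype (2 of 9, against 14.3% of all genes), with Syt6 at 20.9 ± 3.77 CPM in females and 24.3 ± 2.37 CPM in males. The log2 folds of the other 7 genes lay between -0.14 (Rprm) and 0.04 (Tbr1). Without WT replicate 1 Crym (log2 fold -0.39) and Rprm (-0.42) passed, and likewise without WT replicate 2 (-0.39 and -0.42; edgeR, Benjamini-Hochberg adjusted p from 0.00722 to 0.0143), in fits that called 1.19% of genes tested without WT replicate 1 and 1.08% without WT replicate 2. Those fits had 1 residual degree of freedom. With genotype in the model, the WT library that was left set its own genotype level and added nothing to the sex difference. Both fits were thus the same comparison of sexes within UTRmut and het, and not separate results. They left out the difference within WT, where the female minus the male was 0.40 for Rprm and -0.06 for Crym in log2 CPM.

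As a description of the common profile, the centred log2 CPM averaged over the 9 genes was -0.12 and 0.06 in UTRmut, -0.04 and 0.05 in het and 0.03 and 0.02 in WT (female and male). The 3 layer 5 factors averaged -0.10 and -0.03 in UTRmut, -0.02 and -0.02 in het and 0.07 and 0.11 in WT. For the 4 layer 6 genes Foxp2, Tbr1, Tle4 and Syt6 the averages were lowest in WT, at -0.07 and -0.04. They were -0.03 and 0.05 in UTRmut and 0.01 and 0.08 in het. These 4 genes were not uniform, as Tbr1 was highest in WT, at 0.06 and 0.14. In the WT female Syt6 was at -0.35, beside 0.04 for Foxp2 and -0.02 for Tle4. Rprm, also a marker of layer 6, was not in this set. It was at 0.25 and -0.15 in WT and at -0.32 and 0.26 in UTRmut. The genes most like the 9-gene profile over the 6 libraries were Agpat4, Cldn11, Slc25a1, Hist4h4 and Eno2, with Pearson r of 0.978 to 0.991, the highest of 8135 candidates, of which 58 exceeded 0.9. These values come from the same 6 libraries and their shared scaling, and 6 points place few limits on r.

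No member overlapped an annotated gene with many counts. The models within Foxp2 (Gm25470) and Syt6 (Gm43066, and Atg4a-ps on the opposite strand) had at most 8 counts in a library.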

How the data were processed

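Raw read counts per Ensembl gene for 6 libraries of mouse visual cortex were used as deposited, 1 column per library. The submitters' processing notes list the aligner HISAT2, the counter HTSeq 0.6.0, Trimmomatic 0.39, GATK 4.2.3.0 and the build GRCm38, without saying how each served; strand setting, annotation release and read filters are not given here. Per the labels' protocols, kits were of the stranded total RNA type, so unspliced RNA enters the counts. Symbols, positions and exon lengths came from GENCODE M21 (GRCm38), which matched 55227 of 55487 identifiers. Where identifiers shared a symbol, the most counted one kept it.

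Genes were kept with filterByExpr by genotype (minimum count 10, minimum total 15), leaving 16119. Counts were scaled by TMM and tested in edgeR 4.0.16 (R 4.3.3) with its robust quasi-likelihood F test and Benjamini-Hochberg adjustment over all genes tested, at a threshold of 0.05. Every fit used all 6 libraries, which gives a common estimate of spread, with 3 (genotype), 4 (per allele) or 2 (sex with genotype, and sex by allele) residual degrees of freedom. The SE was computed as the size of the log2 fold over the root of its F, and 95% intervals use the test's total degrees of freedom. Centred log2 CPM used a prior count of 2. The tests were run on simulated counts first. Alternatives were no filter on low counts, RLE and upper-quartile factors, DESeq2 1.42.0, a replicate block, the 4 libraries of a comparison alone, genotype left out of the model for sex, and each library left out in turn. A count of 0 allows up to 3 counts, or 0.251 to 0.316 CPM. Such floors cover counting error only.

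The 9 genes, the other lists and the tests were chosen with earlier results of these data known. Named genes were all 9 in each comparison, list genes that passed, and the 2 of each neuron layer, fate and paralogue list with the smallest unadjusted p in UTRmut and in het against WT. Of the genes so chosen, 1 is not reported here. Marker lists of other cells are given by their summed level. Genes most like the 9 were the 5 of highest Pearson r with the mean centred log2 CPM of the 9, among tested genes of at least 10 CPM that varied at least as much.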

Additional observations from a re-analysis of the deposited data

Results flagged for a closer look

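Rprm was picked out because its change per mutant allele differed between the sexes by the test of that difference. The log2 change per allele in females minus that in males was -0.49 (SE 0.10; Benjamini-Hochberg adjusted p = 0.0211 in edgeR), with adjusted p from 0.000406 to 0.541 over 10 alternatives. Each genotype and sex was 1 library, and Rprm per allele went by -0.29 in females and 0.20 in males on the log2 scale. Sex was also replicate number, so they cannot be told apart.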

How the results depend on the processing

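No deep-layer gene passed in a genotype comparison under any alternative run, and the 1 called for sex by allele, Rprm, was not called by DESeq2 (0 genes). With each library left out in turn, 0 to 2 of the 9 passed for sex (2 without either WT library) and 0 to 1 for sex by allele. The median log2 fold over the 9 ranged from -0.15 to 0.12 in UTRmut against WT and from -0.059 to 0.036 per allele, the highest values without the UTRmut female. Single genes that were not called and changed sign had values near 0: in UTRmut against het, Crym was at 0.0069 without a filter, 3.9e-05 with RLE factors and 0.0040 with DESeq2, and Rprm at -0.0037 with upper-quartile factors. Tle4 for sex was at 0.013 with upper-quartile factors, and Bcl11b for sex by allele at 0.00069 with DESeq2. The log2 folds of genes that changed sign when 1 library was left out ranged as follows. For UTRmut against WT they were Rprm -0.39 to 0.20, Crym -0.43 to 0.12, Syt6 -0.12 to 0.30. For het against WT they were Rprm -0.26 to 0.14, Foxp2 -0.083 to 0.25, Bcl11b -0.013 to 0.10. For UTRmut against het they were Tle4 -0.089 to 0.036, Crym -0.31 to 0.25, Fezf2 -0.022 to 0.090, Rprm -0.31 to 0.27, Foxp2 -0.11 to 0.23. For change per mutant allele they were Rprm -0.17 to 0.077, Crym -0.20 to 0.036, Syt6 -0.089 to 0.11, Tbr1 -0.071 to 0.0025. For female against male they were Fezf2 -0.10 to 0.0047, Tle4 -0.081 to 0.055, Rprm -0.42 to 0.080, Foxp2 -0.20 to 0.079, Tbr1 -0.029 to 0.10, Etv1 -0.048 to 0.029. For the sex by allele test they were Bcl11b -0.17 to 0.16, Tbr1 -0.21 to 0.33, Syt6 -0.29 to 0.53, Fezf2 -0.24 to 0.036, Foxp2 -0.37 to 0.078, Etv1 -0.040 to 0.19. With the replicate block (replicate number, which is sex) 0 of the 9 passed, and over all genes 4 passed for UTRmut against WT, 3 for het against WT and 5 for UTRmut against het, beside 1, 2 and 2 without it. Deviations of same-numbered libraries correlated at 0.064 (UTRmut and het), -0.032 (UTRmut and WT) and 0.214 (het and WT), so the numbers were not taken to pair the libraries. Without the filter 27, 13, 28, 19, 92 and 600 genes passed in the 6 comparisons in the order UTRmut against WT, het against WT, UTRmut against het, per allele, sex and sex by allele, beside 1, 2, 2, 0, 6 and 194. DESeq2 called 5, 3, 6, 3, 8 and 81. With 1 library left out the counts ran from 2 to 124, 1 to 41, 0 to 12, 0 to 45, 7 to 198 and 16 to 733 in the same order. With 2 libraries a group, the widest 95% bound on a change of these genes in UTRmut against WT was 1.45-fold.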
